A study of Mus musculus with 6 samples.

Results

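The 10 genes described here encode a lipase and defence proteins that glands and epithelia release onto mucosal surfaces: Lipf, Lyg1, Slpi, Lyz1, Lyz2, Ltf, Lcn2, Dmbt1, Pigr and Scgb1a1. They were selected on earlier results from the same table, in which some of them differed with age, so every difference between the ages is given as a description without a test. All 10 were found by name among the 23361 genes of the deposited table, and all 10 had a mean of at least 1 FPKM over both ages, as did 12652 genes in all. FPKM is the number of sequenced fragments of a transcript per kilobase of its length, scaled to the number of mapped fragments, so levels of different genes can be compared per unit of length.

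C57BL/6 mice of 2 and 6 months of age gave taste cells from their circumvallate and foliate papillae (CV/Fol), to ask how the taste cell transcriptome differs between young and older adults. No transgene or treatment separated the groups. The tongue epithelium of every mouse was loosened with enzymes before cells were drawn up with a capillary pipette. Each age had 3 libraries, each made from the pooled cells of 4 mice at 2 months and of 3 mice at 6 months. The table gives 1 level per gene and age over the 3 libraries. From these levels no SD can be given, and whether a difference exceeds the spread between pools cannot be told. For Lipf, Lyg1 and Slpi, the paper reports significantly lower expression in the older mice, by its sequencing comparison and by quantitative PCR of pooled replicates. In pooled material, fewer cells of a type and less RNA per cell cannot be told apart.

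The trenches around the CV and Fol papillae receive the ducts of the von Ebner glands, serous salivary glands of the back of the tongue. Their serous cells release lingual lipase, which starts fat digestion, together with proteins that bind, lyse or starve bacteria. Lysozymes cut the bacterial cell wall, lactoferrin (Ltf) and lipocalin 2 (Lcn2) withhold iron, and Slpi shields tissue from leukocyte proteases. Dmbt1 is the salivary agglutinin that clumps bacteria, Pigr carries polymeric immunoglobulins across epithelia into secretions, and Scgb1a1 is the main secretory protein of airway club cells.

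Levels of the 10 genes spanned a wide range. At 2 months the highest, Ltf, was 1146 times the lowest, Scgb1a1, and at 6 months it was 159 times the lowest, which was then Lyg1. The summed level of the 10 genes was 3883 FPKM at 2 and 2950 FPKM at 6 months, or 76.0% of the younger value. Ltf alone held 55.2% of the sum at 2 months and 68.3% at 6 months. Without Ltf the sum went from 1739 to 934 FPKM.

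**Figure D1:**
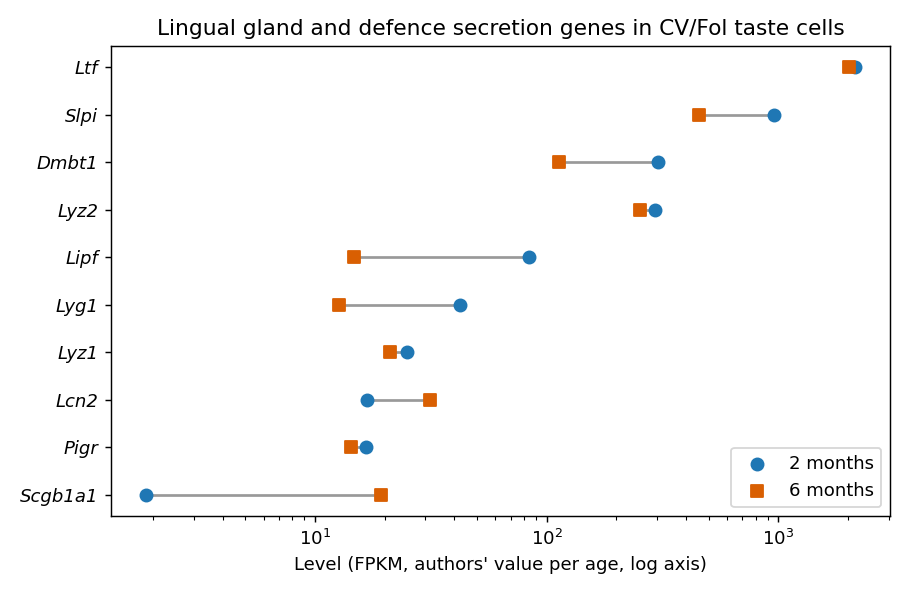
Level of each of the 10 genes (rows) in CV/Fol taste cells at 2 months (circles) and 6 months (squares) in FPKM on a log axis, 1 value per age with no error available. Lipf, Lyg1, Dmbt1 and Slpi lie clearly lower at 6 months, Scgb1a1 and Lcn2 lie higher, and the paired marks of Ltf, Lyz1, Lyz2 and Pigr nearly touch.

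At 6 months 8 of the 10 genes had a lower level and 2 a higher level, where 53.7% of all expressed genes were lower. The 8 include Ltf, whose sign depends on the scaling. Counted on log2(FPKM + 1), 4 genes lay at or beyond 2-fold downward, against 1.04% of all 12652 expressed genes, and 1 gene upward, against 0.561%. At 1.5-fold the counts were 4 downward, against 1.72% of expressed genes, and 2 upward, against 1.05%. The 2-fold shares over all genes were 0.660% and 0.318% without genes listed at exactly 0 in either age. Because the genes were picked with these differences in view, nothing is read from the counts. The median log2 difference of the 10 genes, 6 minus 2 months, was -0.22, and that of all expressed genes was -0.01 with quartiles of -0.10 and 0.08.

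**Figure D2:**
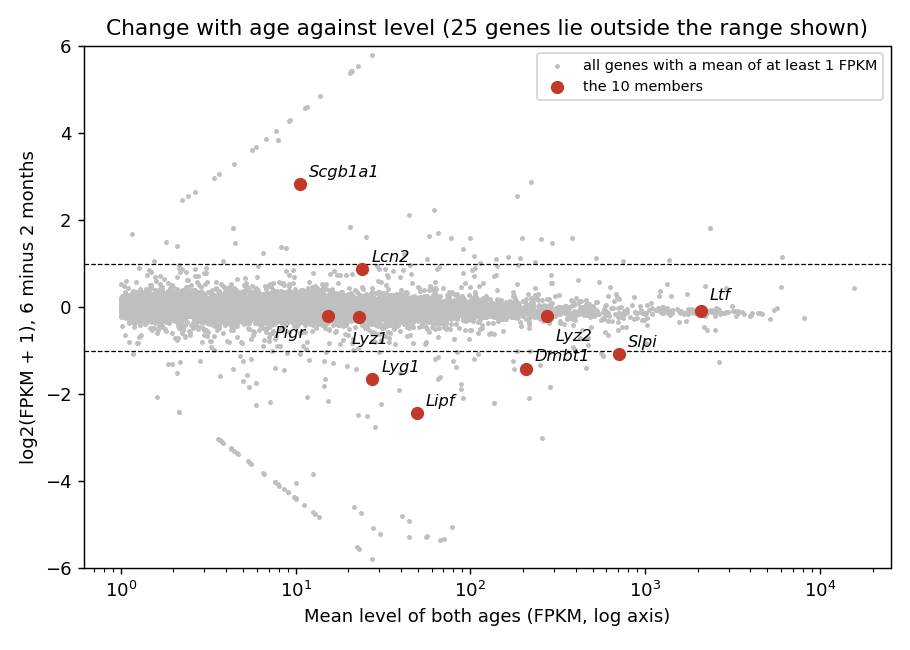
Difference of log2(FPKM + 1), 6 minus 2 months, against the mean level of both ages in FPKM (log axis) for all 12652 expressed genes (grey) and the 10 members (red), with dashed lines at 2-fold. Lipf, Lyg1, Dmbt1 and Slpi lie below the lower line, Scgb1a1 above the upper line, and Ltf, Lyz1, Lyz2 and Pigr inside the cloud; 25 genes lie outside the plotted range.

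The digestive enzyme of the group had the largest downward difference. Lipf, lipase F, lies on chromosome 19 of GRCm38 from 33961187 to 33976810 on the plus strand and has 10 exons. Its level was 83.7 FPKM at 2 and 14.7 FPKM at 6 months, 17.6% of the younger value, a log2 difference of -2.43. It went from rank 1047 to rank 5448 among expressed genes, and its difference was number 64 from the bottom of all. Differences at least as large in either direction were seen for 0.782% of expressed genes.

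The other lipases did not show a difference of that size. Of 19 listed lipase genes in the table, 12 were expressed, and of the 11 without Lipf 9 were lower at 6 months, against 53.7% of all expressed genes, with a median log2 difference of -0.10. Lipm, an acid lipase of the same family made in differentiating keratinocytes, was at 39.2 and 37.6 FPKM. The level of Lipf was thus 2.14 times that of Lipm at 2 months and 0.391 times at 6 months, a ratio that no common scaling of an age can move. The intracellular lipases Mgll and Pnpla2, which break down stored fat, were at 21.8 and 22.3 FPKM and at 18.0 and 17.2 FPKM. Lipk, another acid lipase, was at 8.94 and 5.21 FPKM, a log2 difference of -0.68. Pnlip, the pancreatic lipase, and its cofactor Clps were listed at 0 in both ages.

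The lysozyme genes differed among themselves. Lyg1, a goose-type lysozyme on chromosome 1 from 37946736 to 37957759, minus strand, was at 42.1 FPKM at 2 and 12.6 FPKM at 6 months. The older level was 3.33-fold lower, a log2 difference of -1.66, and the gene was the lowest of the 10 at 6 months. Its relative Lyg2 was listed at 0 in both ages. GENCODE places an antisense gene, Gm15457, over 7401 bases of Lyg1, and whether the RefSeq annotation behind the levels holds it was not checked. The library kit and default alignment that the methods name do not keep the strand of a read. Reads of this pair therefore cannot be told apart. The levels of Lipf and Lyg1, both lower at 6 months, stood at a ratio of 1.99 at 2 months and 1.16 at 6 months.

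Lipf and Lyg1 had in common a short stretch ahead of their RefSeq start sites. The letters TATATAAGG, which hold the TATA form bound by the general transcription machinery, begin 32 bases before the start in Lipf and 30 bases before it in Lyg1. This string was chosen after the sequences had been read, and it is in 0.307% of 32851 RefSeq promoters of GRCm38.p6, each covering 250 bases before and 50 after a start, counting both strands. Promoters of 8 of the 10 genes were found by symbol, not those of Dmbt1 and Scgb1a1, and 2 of the 8 hold the string. The windows of 30 bases are shown 5′ to 3′ on the gene's strand because they are the stretch the pair has in common, with the string in capitals.
Lipf, chr19:33961206-33961235, plus strand: taagatttggTATATAAGGagcaactgtcc
Lyg1, chr1:37957770-37957799, minus strand: gatgagacccTATATAAGGttccgagcact
GENCODE places the start of Lipf before this window and RefSeq places it after. A match is a description and not a site in use.

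Other motifs were also searched on both strands. TGANTCA, a loose form of the letters bound by AP1 factors, was in 0 of the 8 promoters and in 7.81% of all. TTGCNNAA, a form bound by C/EBP factors, was in 4 of the 8 (Lcn2, Ltf, Lyz1 and Slpi) and in 10.8% of all. TATAAA was in 1 of the 8, that of Lyg1, and in 13.6% of all. In Lyg1 it does not overlap TATATAAGG and lies farther from the start, on the other strand. A string that is missing from a window says nothing about the factor.

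The chicken-type lysozymes Lyz1 and Lyz2 kept nearly the same ratio. Lyz2, the form known from macrophages and lung, was at 293 FPKM at 2 and 254 FPKM at 6 months, a log2 difference of -0.21. Lyz1, the form known from Paneth cells, was at 24.99 and 21.2 FPKM, a log2 difference of -0.23. The level of Lyz2 was 11.7 times that of Lyz1 at 2 months and 12.0 times at 6 months. The genes lie side by side on the minus strand of chromosome 10, Lyz2 from 117277331 to 117282321 and Lyz1 from 117287797 to 117292868, with 5475 bases between them, and each has 4 exons. Of 10 listed lysozyme genes, Lyz1, Lyz2 and Lyg1 had a mean of at least 1 FPKM.

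Lyz1 and Lyz2 are close copies, which limits how well their levels can be separated. Their coding sequences of 447 bases, stop codon included, differ at 22 bases and are 95.1% identical, with a longest identical run of 118 bases. Of the 50-base windows of each main transcript, 16.1% of those of Lyz1 and 15.4% of those of Lyz2 also occur in the other. Reads from these stretches could thus be given to either gene. How much of the level of Lyz1, and of its steady ratio to Lyz2, comes from reads of Lyz2 was not measured. The coding part of the first exon, 136 bases with 14 of the 22 differences, is shown because it holds most of the differences, with differing bases in capitals, read 5′ to 3′ from the start codon on the minus strand of GRCm38 from the GENCODE transcripts.
Lyz1, chr10:117292703-117292838: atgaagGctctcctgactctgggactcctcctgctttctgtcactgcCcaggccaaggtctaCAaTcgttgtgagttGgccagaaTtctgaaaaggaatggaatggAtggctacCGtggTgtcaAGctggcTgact
Lyz2, chr10:117282107-117282242: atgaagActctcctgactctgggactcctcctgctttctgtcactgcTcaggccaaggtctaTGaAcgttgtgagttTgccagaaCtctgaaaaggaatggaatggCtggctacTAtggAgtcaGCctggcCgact
Whether likeness ahead of the starts bears on the levels of the pair was not tested. The sequence just before the RefSeq starts is alike too, differing at 9 of 120 positions, again in capitals in the stretches below (RefSeq, GRCm38.p6, minus strand).
Lyz1, chr10:117292869-117292988: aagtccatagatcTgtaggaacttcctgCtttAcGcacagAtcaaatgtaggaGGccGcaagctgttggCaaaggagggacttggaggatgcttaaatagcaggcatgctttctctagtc
Lyz2, chr10:117282273-117282392: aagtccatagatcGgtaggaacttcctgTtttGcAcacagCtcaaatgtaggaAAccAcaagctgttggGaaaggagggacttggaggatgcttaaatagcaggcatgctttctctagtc
Apart from this pair and 0.480% of the windows of Pigr, no 50-base window of the main transcripts of the 10 genes was found in a transcript of another gene.

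Slpi, the protease inhibitor, was the second most abundant of the group in both ages. In GENCODE, Slpi lies on chromosome 2 from 164354070 to 164389095, minus strand, while RefSeq places its start inside that span. It was at 958 FPKM at 2 and 454 FPKM at 6 months, or 47.4% of the younger level. The log2 difference was -1.07, just past 2-fold, and it was -0.98, just short of it, when both ages were scaled to the same sum without small RNA genes. The gene of highest level at 2 months, Ltf, exceeded Slpi 2.24 times at 2 months and 4.44 times at 6 months.

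The relatives of Slpi are small inhibitors built on the whey acidic protein domain. Of 20 such genes that the table lists, 7 were expressed, each with a lower level at 6 months, against 53.7% of all expressed genes, and their median difference on the log2 scale was -0.48, and the same held for the 6 without Slpi, whose median was -0.47. Wfdc18 was at 3727 FPKM at 2 and 1542 FPKM at 6 months, a log2 difference of -1.27 at a level above that of Slpi. Wfdc2, a marker of secretory epithelia, was at 564 and 411 FPKM, and Wfdc12 at 102 and 60.6 FPKM. The level of Slpi was 1.70 times that of Wfdc2 at 2 months and 1.11 times at 6 months.

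Dmbt1, on chromosome 7 from 131032053 to 131121630, plus strand, was at 302 FPKM at 2 and 113 FPKM at 6 months, 37.3% of the younger level and a log2 difference of -1.41. At 2 months Dmbt1 and Lyz2 stood at nearly the same level, with a ratio of 1.03, and at 6 months the ratio was 0.444. Dmbt1 is a large gene with 48 exons in its main transcript. Fgfr2, a growth factor receptor that GENCODE annotates on the opposite strand over the whole gene, was at 27.2 and 28.5 FPKM. Whether the RefSeq annotation behind the levels holds this overlap was not checked. As for Lyg1, the strand of a read was not kept, so reads from stretches in transcripts of both genes cannot be told apart. How much of the level of Dmbt1 this touches was not measured. Other genes with scavenger receptor cysteine-rich domains differed less. Of the 5 expressed, the lymphocyte receptor Cd5 was next in level at 15.9 and 14.5 FPKM, Lgals3bp, a secreted galectin ligand, was at 5.65 and 5.80 FPKM, and Prss12, a serine protease, was at 2.62 and 2.19 FPKM. The median of the 4 without Dmbt1 was -0.05.

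**Figure D3:**
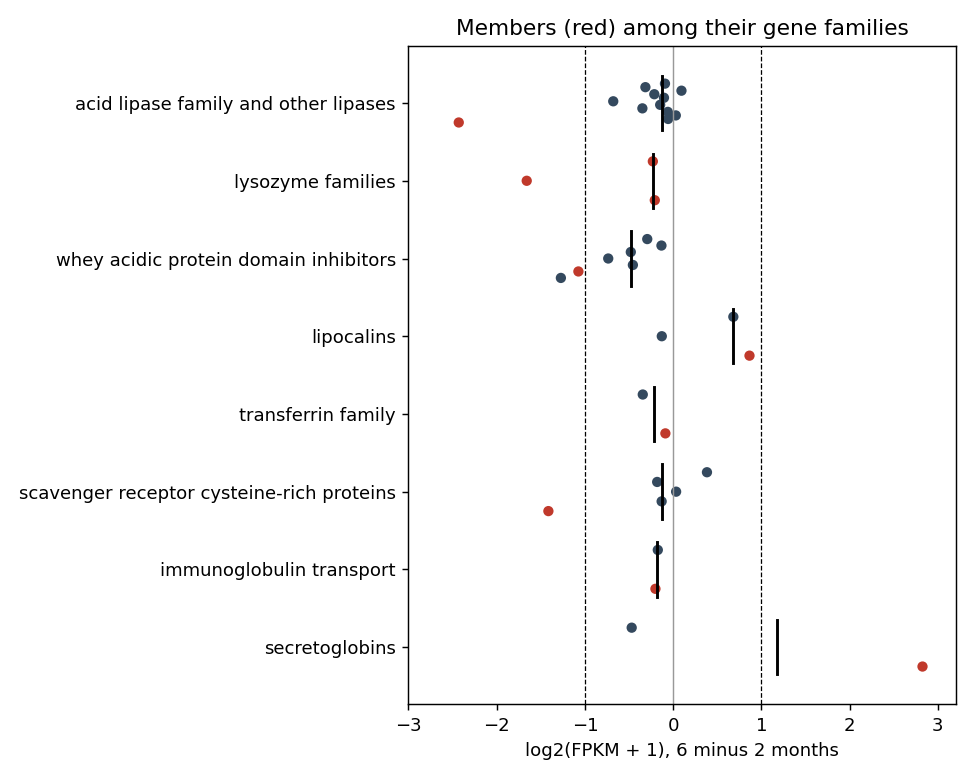
Difference of log2(FPKM + 1), 6 minus 2 months, for each expressed gene (points) of 8 gene families (rows), with the 10 members in red, the family median as a black bar and dashed lines at 2-fold. Lipf, Lyg1, Dmbt1 and Scgb1a1 stand well away from the other genes of their families, while the inhibitors around Slpi all lie left of 0.

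Of the genes for iron-withholding proteins, Lcn2 differed with age more than Ltf. Ltf, on chromosome 9 from 111019271 to 111042767, plus strand, was at 2144 FPKM at 2 and 2016 FPKM at 6 months, rank 57 and rank 53 of expressed genes. Its log2 difference was -0.09 and turned to 0.01 with the sum scaled without small RNA genes, so it has no direction here. Lcn2, on chromosome 2 from 32384633 to 32388252, minus strand, was at 16.8 FPKM at 2 and 31.4 FPKM at 6 months, 1.87 times the younger level and a log2 difference of 0.87. The level of Ltf was 128 times that of Lcn2 at 2 months and 64.3 times at 6 months. Serum transferrin, Trf, was at 2.78 and 1.98 FPKM. Among 22 listed lipocalin genes, 3 were expressed, and next to Lcn2 these were C8g, a complement component, at 3.23 and 2.87 FPKM, and Orm1, an acute phase protein, at 0.970 and 2.16 FPKM. The odorant-binding lipocalins Obp1a, Obp2a and Obp2b were listed at 0 in both ages.

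Pigr, on chromosome 1 from 130826684 to 130852249, plus strand, was at 16.5 FPKM at 2 and 14.3 FPKM at 6 months, a log2 difference of -0.20, and 17.9% of expressed genes had a difference at least as large. At 2 months it stood beside Lcn2, which was 1.01 times its level, and at 6 months Lcn2 was 2.20 times its level. Fcamr, a receptor for immunoglobulins A and M, was at 2.62 and 2.21 FPKM. The plasma cell genes Igj, which encodes the chain that joins polymeric immunoglobulins, and Tnfrsf17 were at 0.0103 and 0.0173 FPKM and at 0 in both ages.

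Scgb1a1 was the only one of the 10 genes that stood at least 2-fold higher at 6 months. It lies on chromosome 19 from 9083636 to 9087958, minus strand, and its transcript of 476 bases in 3 exons is the shortest of the group. Its level was 1.87 FPKM at 2 months, rank 11528 of expressed genes, and 19.4 FPKM at 6 months, rank 4456. That was 10.3 times the younger level and a log2 difference of 2.83, which the pseudocount of 1 holds down, since it was 3.37 without a pseudocount. Of 15 listed secretoglobin genes, 2 were expressed. Scgb3a1, a secretoglobin of airway and other mucosal glands, was at 9.82 FPKM at 2 and 6.81 FPKM at 6 months, so the level of Scgb1a1 was 0.191 times that of Scgb3a1 at 2 months and 2.84 times at 6 months. Scgb3a2, another airway form, was at 0.297 and 0.662 FPKM, and 9 secretoglobin genes were listed at 0 in both ages. Scgb1a1 has 1 value per age, and whether a single pool set the 6 month value cannot be told.

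The order of the 10 genes therefore differed between the ages. At 2 months it ran Ltf, Slpi, Dmbt1, Lyz2, Lipf, Lyg1, Lyz1, Lcn2, Pigr and Scgb1a1, and at 6 months Ltf, Slpi, Lyz2, Dmbt1, Lcn2, Lyz1, Scgb1a1, Lipf, Pigr and Lyg1. The closest neighbours were Dmbt1 and Lyz2 at 2 months (1.03), Lcn2 and Pigr at 2 months (1.01) and Lipf and Pigr at 6 months (1.03). Without values of single libraries, the order of no neighbours can be set against their spread.

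Genes that lie beside the 5 members past 2-fold were compared with them. Genes that overlap a member, as Fgfr2 overlaps Dmbt1, were left out. Within 200 kb of Lipf, Lyg1, Slpi, Dmbt1 and Scgb1a1, 32 protein-coding genes of the table were expressed, 0 of them differed by 2-fold, against 1.04% lower and 0.561% higher of all expressed genes, and the largest log2 difference in size was 0.74. So few genes pass 2-fold that a count of 0 is near this share. That gene was Wfdc12, near Slpi. Around Lipf, in a cluster of acid lipase genes, all 4 expressed neighbours were lower at 6 months, with a median of -0.31, and the nearest of them, Lipk, starts 31480 bases away. Around Slpi 7 of 9 were lower, with a median of -0.21, and around Dmbt1 both of 2, with a median of -0.10. Wfdc2, Wfdc5 and Wfdc12 around Slpi, and Lipo1, Lipk and Lipm around Lipf, are also in the family counts above. Counted from the RefSeq start of Slpi, Wfdc2 (-0.46) would lie outside the window, so the values around Slpi depend on the longer GENCODE span. Around Lyg1 2 of 6 were lower, with a median of 0.02, and around Scgb1a1 3 of 11, with a median of 0.11. Of all expressed genes 53.7% were lower. Ahnak, which encodes a giant scaffold protein and ends 6722 bases from Scgb1a1, was at 84.4 and 116 FPKM.

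**Figure D4:**
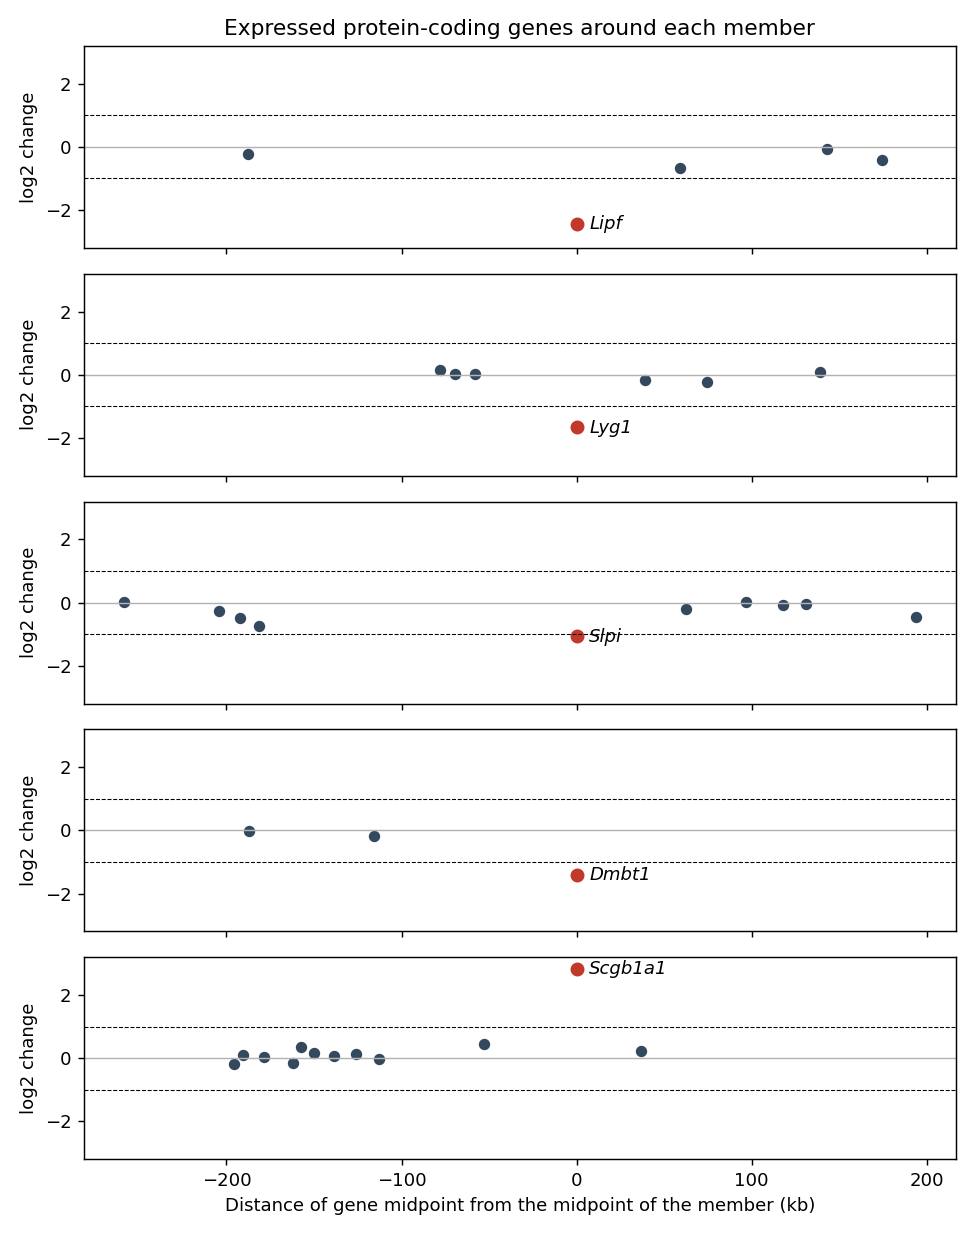
Difference of log2(FPKM + 1), 6 minus 2 months, for expressed protein-coding genes within 200 kb of each of 5 members, against the distance between gene midpoints in kb, with the member in red and dashed lines at 2-fold. Each member lies beyond a dashed line, and its 2 to 11 neighbours all lie between the lines. Genes that overlap a member are left out.

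Few genes had a level and a difference like those of Lipf or Scgb1a1. Among 2764 genes with a mean level within 2-fold of that of Lipf, the nearest in log2 difference over the 2 ages were Crnn (-2.49), a cornified envelope gene, the microRNA gene Mirlet7c-2 (-2.23) and Kprp (-2.75), a keratinocyte protein gene. Among 4992 genes near Scgb1a1 in level, the nearest were the microRNA genes Mir1936, Mir680-2 and Mir328, of which the first pair is listed at 0 FPKM at 2 months and Mir328 had a log2 difference of 1.83. No gene came within 0.78 of Scgb1a1. Most of the 79 genes listed at exactly 0 in 1 age are microRNA and small nucleolar RNA genes, so the microRNA genes named here are weak matches.

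Markers of gland cells were mostly lower at 6 months beside Lipf, Lyg1, Slpi and Dmbt1. Of 25 listed genes of serous and mucous gland cells, 14 were expressed, 12 of them lower at 6 months and 1 by 2-fold, against 53.7% and 1.04% of all expressed genes, with a median log2 difference of -0.36, and the summed level of the list was 473 FPKM at 2 and 369 FPKM at 6 months. The highest were Xbp1, a regulator of secretory cells, at 191 and 163 FPKM, Tff2, a trefoil peptide, at 52.0 and 38.7 FPKM, Agr2, which folds mucins, at 55.3 and 34.98 FPKM, and the chloride transporter Slc12a2 at 40.7 and 34.9 FPKM. Bpifb1, a secreted antibacterial protein of airway and oral glands, was at 28.6 and 10.6 FPKM, a log2 difference of -1.36. Dcpp2, a salivary gland gene, went the other way, from 1.45 to 3.28 FPKM, a log2 difference of 0.80, while its relatives Dcpp1 and Dcpp3 were at 16.3 and 13.0 FPKM and at 20.2 and 13.4 FPKM. The salivary genes Car6, Prol1 and Cst10 were listed at 0 in both ages, Pip, Bpifa2 and Lpo had means under 1 FPKM, and Amy1, amylase, was at 2.72 and 1.73 FPKM. The part of gland cells in the differences of Lipf, Lyg1, Slpi and Dmbt1 was not tested.

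Markers of neutrophils and macrophages, cells that also make Ltf, Lcn2 and Lyz2, were measured beside them. Of 15 listed neutrophil genes, 6 were expressed, with a median log2 difference of -0.08. Ltf and Lcn2 are on that list, and S100a9 and S100a8, which keratinocytes also make, were at 75.2 and 69.8 FPKM and at 65.4 and 56.1 FPKM. The remaining expressed genes of the list, Cxcr2 and Csf3r, were at 4.77 and 4.47 FPKM and at 3.40 and 3.60 FPKM. The granule genes Elane and Ctsg were listed at 0 in both ages, Mpo was at 0.00558 and 0.0276 FPKM, and Camp was at 0.203 and 0.301 FPKM. Of 14 macrophage genes 11 were expressed, with a median of -0.07. Next to Lyz2 these were led by Cd14 at 33.9 and 30.3 FPKM, Tyrobp at 16.9 and 16.0 FPKM and C1qa at 11.8 and 11.4 FPKM. The summed levels were 2312 and 2184 FPKM for the neutrophil list and 407 and 358 FPKM for the macrophage list, Ltf and Lyz2 included. The part of these cells in the levels of Ltf, Lcn2 and Lyz2 was not tested.

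Markers of the labelled cell type were present. Of 12 taste cell genes 11 were expressed, 5 of them lower and 6 higher at 6 months, with a median log2 difference of 0.05. Of the 11, 0 differed by 2-fold, against 1.04% lower and 0.561% higher of all expressed genes, so a count of 0 is near this share. Krt8 of mature taste cells was at 234 and 197 FPKM, the taste G protein Gnat3 at 84.7 and 79.9 FPKM, the type I cell enzyme Entpd2 at 66.1 and 57.7 FPKM, and Plcb2 of type II cells at 53.3 and 55.1 FPKM. Keratins of basal epithelial cells were higher still, Krt5 being at 2180 and 1962 FPKM and Krt14 at 1287 and 1533 FPKM. Which cells held the RNA of each of the 10 genes was not measured.

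**Figure D5:**
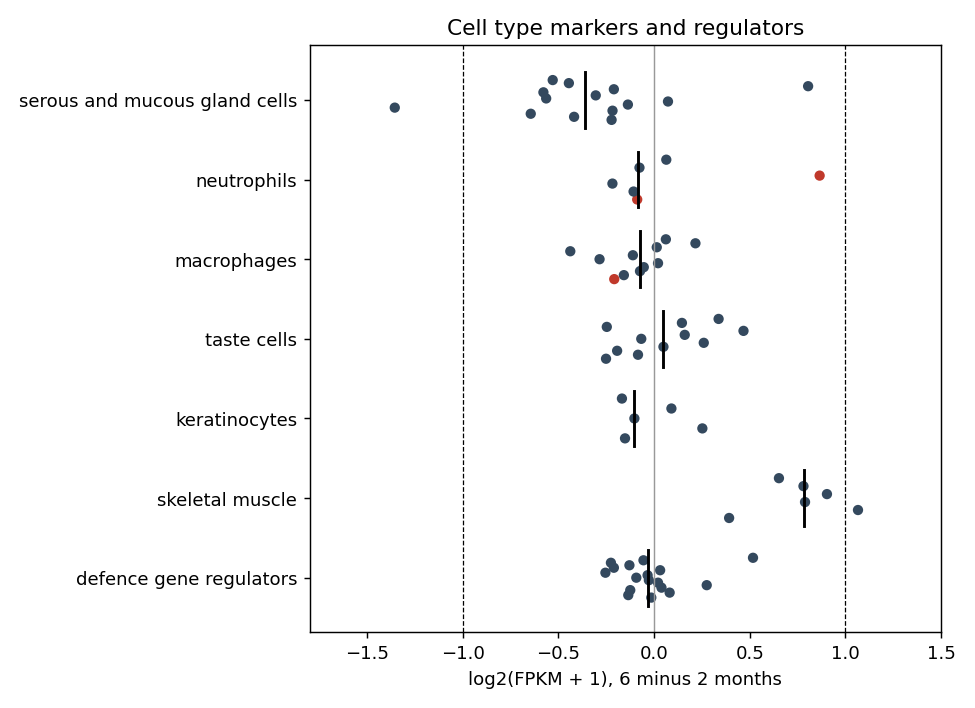
Difference of log2(FPKM + 1), 6 minus 2 months, for each expressed gene (points, members in red) of 6 cell type marker lists and 1 list of defence gene regulators, with list medians as black bars and dashed lines at 2-fold; Krt4 and Krt6a, listed at 0 in 1 age, are left out. Gland cell genes lie mostly left of 0 and skeletal muscle genes right of 0.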

How the data were processed

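Reads from polyA-selected libraries had been aligned by the authors to the GRCm38/mm10 build (TopHat2 2.0.7, RefSeq annotation), quantified with Cufflinks 2.1.1 and compared the ages with Cuffdiff. The FPKM values used are those the authors deposited, 1 per gene and age over 3 libraries; the library normalization is not given in the sources used here. The table's group B was taken as 6 months and S as 2 months from the sample titles. The sample labels give 2 and 6 months, and so does a line of the series' design text, while another line of it names 3 and 6 months. The deposited table also holds the p-value of the authors' own comparison for each gene, which was not used. Depth per library is unknown, since FPKM does not carry it.

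The difference of a gene is its log2(FPKM + 1) at 6 months less the same at 2 months, and a gene was called expressed where its 2 levels averaged 1 FPKM or more. With 1 value per age no test was made. The members and gene lists were chosen with earlier results of these data known. Genes named are the members, from each list those of the 4 highest levels or with a 2-fold difference among expressed genes, and the 3 genes most like Lipf and Scgb1a1 in difference at a level within 2-fold. Other named genes (list genes at lower ranks, list genes at or near 0, genome neighbours and overlapping genes) were chosen after their values were seen. Positions, exons and transcripts are those of GENCODE M21 on GRCm38, and the transcript with the longest complete coding sequence stands for a gene. Alternatives were other pseudocounts, filters, folds and scalings. The computation of folds was tested on simulated data. Python 3.11.15, numpy 2.4.6, pandas 2.3.3 and matplotlib 3.10.9 were used.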

Additional observations from a re-analysis of the deposited data

How the results depend on the processing

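No paired analysis was possible because each age has a single pooled value, and for the same reason no replicate could be left out. Without a spread between replicates, a log2 difference was taken as moved when it shifted by more than 0.1. The alternatives were a pseudocount of 0.1, no pseudocount, a common upper quartile, a common median, and a common sum without 774 small RNA genes, whose share of all FPKM was 8.74% in the younger and 10.9% in the older mice. The median log2 difference of all genes lay between -0.01 and 0.08 under these. Scgb1a1 moved from 2.83 to 3.30 with the smaller pseudocount, 3.37 without one and 3.09 with the common sum. Lcn2 moved from 0.87 to 0.97 with the common sum, which also left 3 genes lower by 2-fold in place of 4. The common sum rescales both ages before the pseudocount is added. Its shifts for Scgb1a1 and Lcn2 therefore also hold a change in the weight of the pseudocount. The number of genes higher went from 1 to 2 at 1.5-fold. The share of all genes lower by 2-fold was 1.04%, and 0.578% with no filter on level. The share higher was 0.561%, and 0.308% with no filter, an alternative chosen after seeing the data. Leaving out genes listed at exactly 0 in either age, also chosen after seeing the data, gave 0.660% lower and 0.318% higher. Of the list medians, 9 values moved, all of them of the lipocalin, secretoglobin and skeletal muscle lists. Values near 0 changed sign: with the common sum Ltf was at 0.01, and the medians of the neutrophil, macrophage and regulator lists at 0.01, 0.02 and 0.06, the last also at 0.01 with a common upper quartile. The median of all genes, at -0.01, also turned positive under the 3 scalings. No other difference of a member or median of a list changed sign.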

Other observations

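Regulators of epithelial defence genes were listed beside the secretions. All 17 were expressed, 0 differed by 2-fold, against 1.04% lower and 0.561% higher of all expressed genes, and their median log2 difference was -0.03. Ehf and Elf3, transcription factors of secretory and barrier epithelia, were at 172 and 171 FPKM and at 132 and 120 FPKM. Il17rc, a receptor chain for interleukin 17, was at 56.1 and 59.4 FPKM, and Nfkbia, the inhibitor of NF-kappaB, at 54.6 and 49.99 FPKM. Il22ra1, the receptor chain for interleukin 22, was at 1.05 and 1.94 FPKM, a log2 difference of 0.52.

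Of 8 skeletal muscle genes 6 were expressed, each at a higher level in the older mice, where 53.7% of all expressed genes were lower, with a median log2 difference of 0.78. Tnnc2, a troponin, was at 2.14 and 5.57 FPKM, and Mylpf, Acta1 and Mb were at 3.76 and 5.25, at 1.98 and 4.15, and at 1.82 and 4.28 FPKM. Muscle lies under the lingual epithelium, and its part in any of the differences above was not tested.

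The table lists 79 genes at exactly 0 FPKM in 1 age with a mean of at least 1 FPKM over both, most of them genes of microRNAs and small nucleolar RNAs. Krt4, a keratin of the oral lining, is listed at 7334 FPKM at 2 months and at 0 at 6 months, and Krt6a at 0 and 3391 FPKM. Krt13, another keratin of the keratinocyte list, is listed at 0 in both ages. Whether a 0, in 1 age or in both, is a level or a failed estimate was not tested. None of the 10 secretion genes is listed at 0 in either age.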
